A study of Mus musculus with 16 samples.

Results

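The genes described here encode the enzymes of sterol synthesis and of fatty acid synthesis, elongation and desaturation, with the regulators that control both. They were chosen by symbol as a list of 34 genes and kept where they reached 1 FPKM (sequenced fragments corrected for library size and transcript length) in at least 4 of 16 libraries. Of the 34 listed genes, 33 were among the 13982 genes of the table and 32 were kept: 17 of 18 genes of sterol synthesis, the sterol carrier gene Stard4, 5 of 5 regulators and 9 of 10 genes of fatty acid synthesis. Lss, which encodes lanosterol synthase, reached 1 FPKM in 3 libraries and was left out, with levels of 0 to 1.83 FPKM. Scd1, a stearoyl-CoA desaturase gene, reached it in exactly 4 libraries and was kept, with levels of 0 to 1.95 FPKM. Levels of Fads2 were not analysed here.

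RNA was sequenced from cells labelled as microglia, which were stained for CD45 and CD11b and sorted from the cortex of C57BL/6 mice. There were 4 groups of 4 libraries: MCAO+AS-exos, MCAO+Ctrl-exos, MCAO and Sham. MCAO stands for middle cerebral artery occlusion, which models ischemic stroke, and the labels describe the Sham mice as untreated. In both exosome groups, mice with MCAO received 150 µg of exosomes into the tail vein at 3-day intervals, the first on the day of surgery. The exosomes were isolated from plasma of Apoe knockout mice fed a western or a normal diet, and atherosclerosis was established by 12 weeks of the western diet. Which diet belongs to which code, the age of the mice and the time from surgery to sorting are not given in the sources used here. Neither is it given whether each library came from a separate mouse, so p-values measure the spread between these libraries, which may be technical.

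Cholesterol is made from acetyl-CoA through mevalonate, isoprenoids, squalene and lanosterol. Fatty acids are made from the same precursor by acetyl-CoA carboxylase and fatty acid synthase, and are then elongated and desaturated. Both routes are driven by the SREBP transcription factors: Srebf2 encodes the form best known for sterol genes, and Srebf1 the forms best known for fatty acid genes. SREBP precursors are escorted from the endoplasmic reticulum by SCAP, and the INSIG proteins hold SCAP back when sterols are plentiful. In brain, microglia and infiltrating phagocytes take up cholesterol-rich myelin debris after injury, and liver X receptors, which sense oxysterols, control its export and also raise Srebf1 transcription.

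SREBP is known to act through sterol regulatory elements together with NF-Y, and the promoters of the listed genes were searched for both motifs. RefSeq promoters (build GRCm38.p6, 250 bases before each start site) were matched by symbol for 27 of the 34 listed genes. Lss and Fads2, which were not kept, are among these 27. Fdps, Fdft1, Sqle, Stard4, Fads1, Scd1 and Scd2 had no promoter matched. The sterol regulatory element was searched as TCACNCCAC and the NF-Y box as CCAAT, each on both strands. The sequences run 5' to 3' on the strand of the gene, and capitals mark these motifs, CCAAT reading as ATTGG where it lies on the other strand. Hmgcs1, which encodes HMG-CoA synthase, is shown as the 1 member promoter that matched TCACNCCAC (chr13:119690101-119690350, plus strand). The match lies on the gene's strand at 137 to 129 bases before the start. Mvk, the mevalonate kinase gene, is shown for its 5 NF-Y boxes (chr5:114444019-114444268, plus strand). Srebf2 (chr15:82147019-82147268, plus strand) and Elovl1, which encodes an elongase of saturated very long chain fatty acids (chr4:118427843-118428092, plus strand), are shown because results below turn on them. Each promoter shown for them holds 1 box, and the other promoter listed for Elovl1 (chr4:118429451-118429700) holds none.
Hmgcs1: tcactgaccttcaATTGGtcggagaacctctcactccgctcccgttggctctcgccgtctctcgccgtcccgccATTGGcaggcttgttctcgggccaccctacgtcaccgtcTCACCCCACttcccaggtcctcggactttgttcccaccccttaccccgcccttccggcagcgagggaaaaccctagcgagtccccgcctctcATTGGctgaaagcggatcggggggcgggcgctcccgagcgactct
Mvk: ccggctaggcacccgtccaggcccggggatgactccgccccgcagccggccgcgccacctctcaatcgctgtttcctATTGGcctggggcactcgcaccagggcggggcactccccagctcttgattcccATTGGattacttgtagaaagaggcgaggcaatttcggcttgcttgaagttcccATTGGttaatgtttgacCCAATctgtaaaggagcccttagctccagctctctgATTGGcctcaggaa
Srebf2: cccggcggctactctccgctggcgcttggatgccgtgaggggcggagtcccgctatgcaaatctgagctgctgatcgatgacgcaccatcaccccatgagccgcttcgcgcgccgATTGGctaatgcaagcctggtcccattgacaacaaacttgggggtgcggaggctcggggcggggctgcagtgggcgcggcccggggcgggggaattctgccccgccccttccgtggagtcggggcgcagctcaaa
Elovl1: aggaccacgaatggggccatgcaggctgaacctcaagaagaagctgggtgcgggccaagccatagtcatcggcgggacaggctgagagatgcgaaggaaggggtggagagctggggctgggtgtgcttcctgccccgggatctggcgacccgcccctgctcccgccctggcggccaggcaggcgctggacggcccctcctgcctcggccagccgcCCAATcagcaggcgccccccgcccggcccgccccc

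The NF-Y box was found in 21 of the 27 listed genes with a promoter (77.8%), in any of the promoters listed for a gene. This compares with 40.7% of the 8755 tested genes with a promoter, by the same rule. Of all 32851 promoters of this length, each counted singly and not per gene, 33.8% held it. The shares of all promoters below are also counted singly. The GC box, GGGCGG, was found in 22 of the 27 (81.5%), against 63.1% of tested genes and 32.7% of all promoters. TCACNCCAC was found in 1 of the 27 (3.7%), against 1.2% of tested genes and 1.1% of all promoters. These matches describe letters in a window of 250 bases and show no binding. A promoter without a match to the exact letters searched is not shown to lack the element.

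Most members were expressed at low to moderate levels. Over the 16 libraries the median level per gene, itself taken over the 32 members, was 5.07 FPKM, against 8.8 FPKM over all 10846 tested genes. The median was 10 FPKM or more for 11 members and under 3 FPKM for 11 others. Ebp, which encodes the sterol isomerase that follows demethylation of lanosterol, and Elovl1 were among the highest, with group means of 31.5 to 62.4 and 30.9 to 110 FPKM. At the low end, Acaca, which encodes acetyl-CoA carboxylase, had group means of 0.163 to 1.36 FPKM, and Fasn, the fatty acid synthase gene, 0.618 to 1.43 FPKM. Of the members, 15 reached 1 FPKM in all 16 libraries, and 11 were listed at 0 in at least 1 library.

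**Figure D1:**
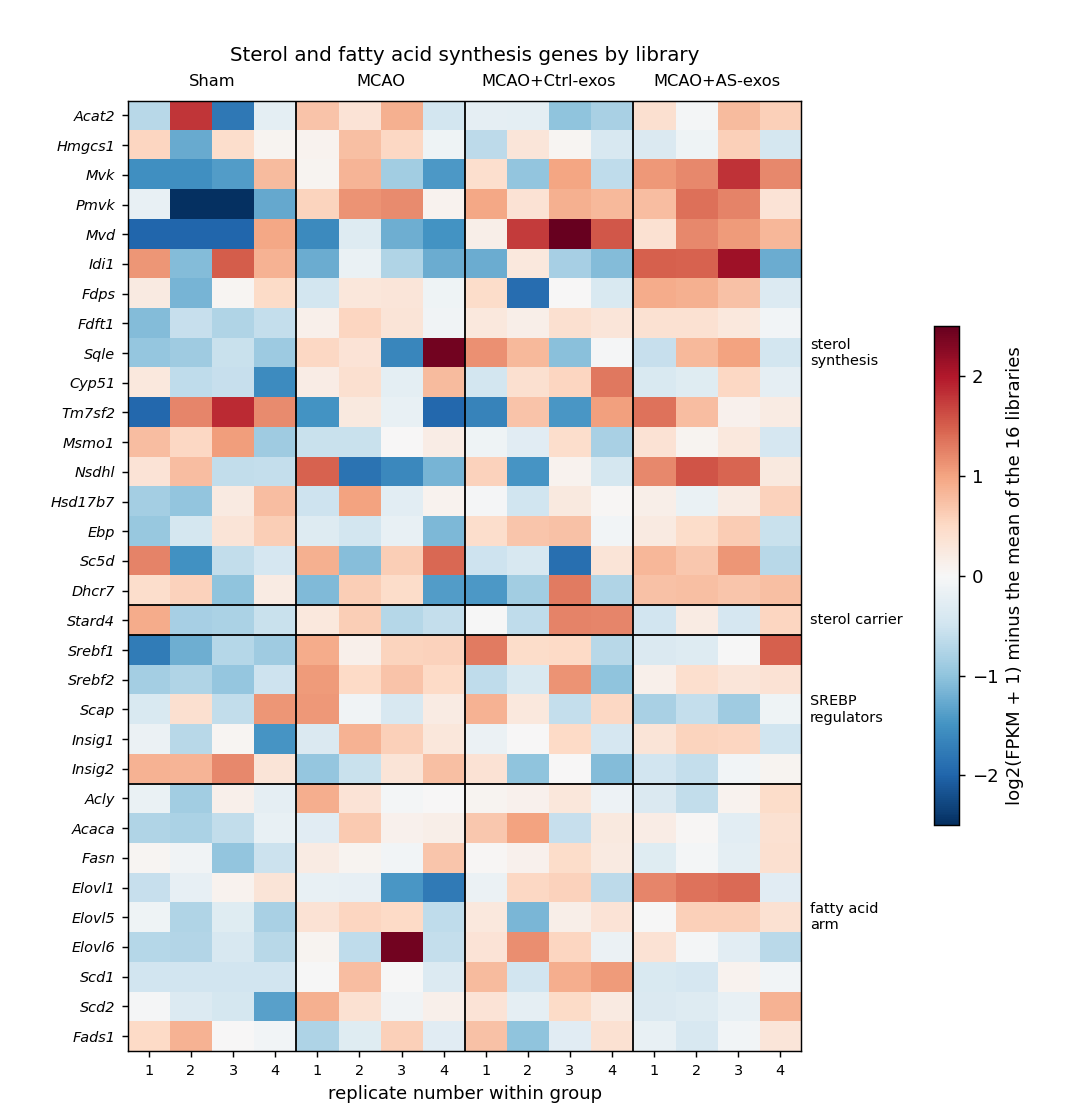
Level of each of the 32 kept members in each of the 16 libraries, as the difference of log2(FPKM + 1) from the member's mean over all libraries, with colours limited to 2.5 in either direction; rows are ordered by role and columns by group and replicate. Srebf1, Srebf2 and Fdft1 are low across the 4 Sham libraries, and Pmvk is low in all of them but replicate 1, which lies near its mean. Sterol enzymes such as Idi1 and Sc5d vary widely within groups.

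Levels per library summed to between 758283 and 983648 FPKM, and 8813 to 10003 genes reached 1 FPKM; the files give no depth, and counting error is therefore unknown. MCAO+AS-exos replicate 4 stood apart, with a mean correlation across genes of 0.915 with its own group against 0.956 to 0.962 for replicates 1 to 3. The 9 microglia markers summed to 19713 to 21632 FPKM in Sham libraries and to 1092 to 1879 FPKM in those of the 3 groups with MCAO, where the mean of Sall1 was under 1 FPKM and the other 8 stayed above it. The 7 monocyte markers summed to 6.38 to 96.9 FPKM in Sham and 1509 to 5298 FPKM in the other groups. The 6 border macrophage markers summed to 2.75 to 57.4 FPKM in Sham and 1668 to 5334 FPKM in the others. The 6 neutrophil markers summed to 76.7 to 144 FPKM in Sham, with Retnlg and Ly6g at 0 in all 4, and to 1612 to 9660 FPKM in the others. In every library with MCAO, most of that sum was S100a8 and S100a9. Ly6g was also at 0 in all 4 MCAO libraries. Csf3r was at 64.7 to 134 FPKM in Sham and 43.2 to 111 FPKM in MCAO. Astrocyte markers (5 of 7 in the table) summed to 57.4 to 107 FPKM in Sham and 1.40 to 15.3 FPKM in the others. Nearly all of the Sham sum was Slc1a3, at 56.9 to 107 FPKM, and the other markers stayed at or under 0.43 FPKM there. Gja1 went the other way, at 0 to 0.02 FPKM in Sham and 2.74 to 11.7 FPKM in MCAO. Oligodendrocyte markers (7 of 9) summed to 13 to 32.2 and 26.3 to 75.0 FPKM. Neuron markers (3 of 5) stayed at or under 5.37 FPKM throughout. Endothelial markers (5 of 6) reached 7.16 FPKM in Sham, 6.51 in MCAO, 5.71 in MCAO+Ctrl-exos and 61.4 in MCAO+AS-exos, where Ly6c1 made up 49.5. T and B cell markers were not analysed here.

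The first question is how these genes differed after stroke surgery, with MCAO set against Sham. Both SREBP transcription factor genes rose, as did Pmvk, the phosphomevalonate kinase gene, and Fdft1, the gene of squalene synthase, the first enzyme committed to sterols. These were 4 of the 32 members (12.5%) by limma with a Benjamini-Hochberg adjusted p below 0.05, against 24.5% of all tested genes called higher. No member was called lower, against 14.8% of all tested genes. At an unadjusted p under 0.05 the members passing numbered 8 (25%), against 47.8% of all tested genes. The median log2 fold change was 0.58 over the members and 0.25 over all tested genes. Fold changes here are differences of log2(FPKM + 1), which understate the change of low genes. The share of members called was below the background in both directions.

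Among the regulators, Srebf1 stood at 1.61, 2.75, 4.33 and 3.73 FPKM in Sham replicates 1 to 4 and at 15.8, 8.64, 12.0 and 12.2 FPKM in MCAO. It was 20.7, 11.2, 11.4 and 4.45 FPKM in MCAO+Ctrl-exos and 5.87, 6.01, 7.78 and 23.7 FPKM in MCAO+AS-exos. All 12 libraries with MCAO lay above all 4 Sham libraries, with MCAO+Ctrl-exos replicate 4 just above the highest of them. The log2 fold change of MCAO against Sham was 1.70 ± 0.45 (SE, n = 4 per group; limma adjusted p = 0.00559).

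Srebf2 was 1.49, 1.66, 1.32 and 2.13 FPKM in Sham and 8.45, 5.38, 6.43 and 5.39 FPKM in MCAO. In MCAO+Ctrl-exos it was 1.91, 2.47, 8.81 and 1.26 FPKM, and in MCAO+AS-exos 3.90, 5, 4.59 and 4.77 FPKM. Every MCAO and MCAO+AS-exos library was above every Sham library, whereas replicates 1 and 4 of MCAO+Ctrl-exos lay within the Sham range or below it. The log2 fold change of MCAO against Sham was 1.47 ± 0.40 (limma adjusted p = 0.00639). Srebf1 exceeded Srebf2 in all 16 libraries, by 1.08 to 10.8 times in FPKM.

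The INSIG genes lay on different sides of 0 in this comparison, and neither passed the test. Insig1, itself a known SREBP target, was 11.2, 7.29, 13 and 3.87 FPKM in Sham and 9.51, 23.5, 19.3 and 15.3 FPKM in MCAO, a log2 difference of 0.91 ± 0.38 (limma adjusted p = 0.0677). Replicate 1 of MCAO lay within the Sham range and the other 3 above it. Insig2, which is not known as an SREBP target, was 26.3, 26.2, 33.5 and 17.85 FPKM in Sham and 6.70, 9.26, 17.80 and 24.45 FPKM in MCAO, a log2 difference of -0.92 ± 0.41 (limma adjusted p = 0.0795). Replicate 4 of MCAO lay within the Sham range and the other 3 below it. In MCAO+Ctrl-exos the 4 libraries had 11.2, 12.6, 17.9 and 9.04 FPKM of Insig1 and 18.4, 6.51, 14.2 and 6.08 FPKM of Insig2. In MCAO+AS-exos they had 15.9, 18.7, 18.5 and 8.58 FPKM of Insig1 and 9.85, 8.93, 13.3 and 14.8 FPKM of Insig2.

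The balance of the INSIG genes was therefore also taken within each library, a measure added after the values were seen. The ratio of Insig1 to Insig2 in FPKM was 0.217 to 0.424 in Sham, so that Insig2 was the higher gene in all 4 libraries. It was 0.626 to 2.54 in MCAO, 0.608 to 1.93 in MCAO+Ctrl-exos and 0.581 to 2.10 in MCAO+AS-exos, with Insig1 the higher gene in 3 of 4 libraries of each group. No library with MCAO overlapped the Sham range. The log2 ratio, with 1 FPKM added to each gene, was 1.83 higher in MCAO than in Sham; the two-sided exact permutation p was 0.0286, the smallest that 4 against 4 allows, and 0.229 after adjustment over the 8 ratio tests made. The log2 ratio of Srebf1 to Srebf2 differed by 0.23 (exact permutation p = 0.429, adjusted 0.858).

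Scap, the gene of the escort protein, was 4.01, 7.71, 3.30 and 13 FPKM in Sham and 13, 5.19, 3.99 and 6.59 FPKM in MCAO. It was 11.1, 6.88, 3.36 and 8.43 FPKM in MCAO+Ctrl-exos and 2.75, 3.33, 2.54 and 5.07 FPKM in MCAO+AS-exos. The Sham and MCAO values covered nearly the same range, with a log2 difference of 0.08 ± 0.44 (limma adjusted p = 0.903), and the sign of this difference changed with the scaling.

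**Figure D2:**
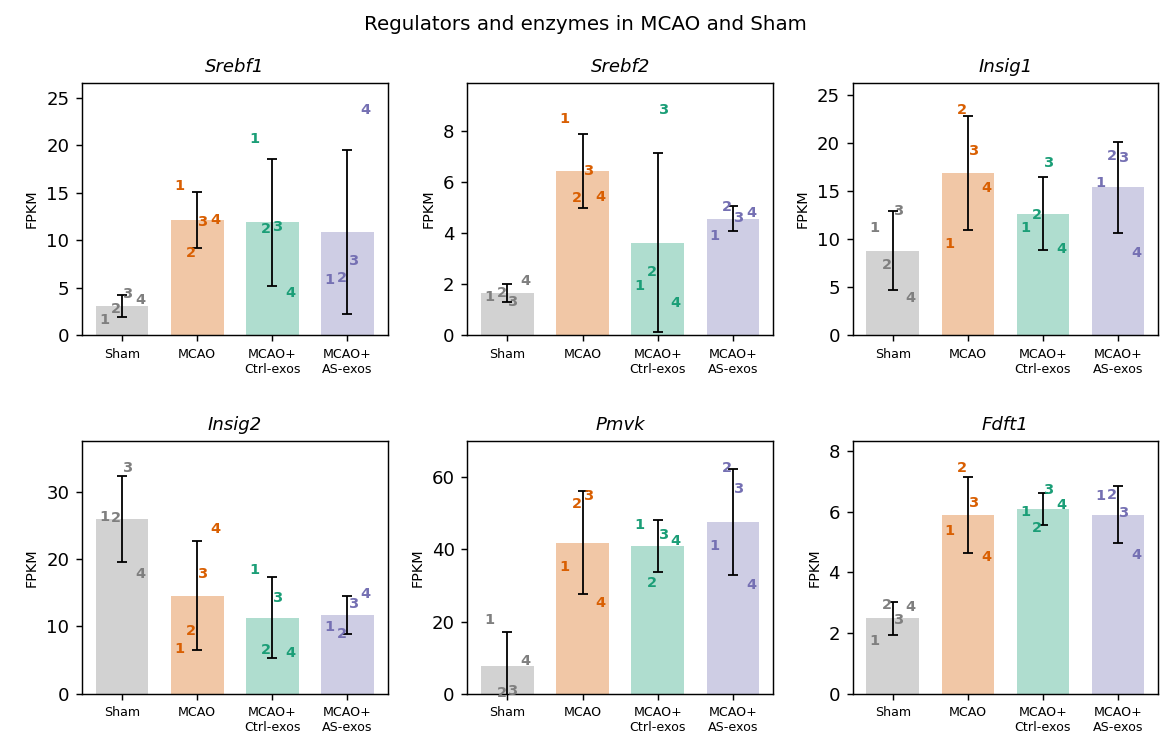
FPKM of 4 regulators and 2 sterol enzymes in the 4 groups; bars are group means, error bars SD (cut off at 0 where they reach below it), and each digit is the replicate number of a library. Srebf1, Pmvk and Fdft1 are higher in all 12 libraries with MCAO than in all 4 Sham libraries, and Insig2 has its highest mean in Sham.

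In the sterol arm, 2 of 17 genes were called higher (11.8%, against the 24.5% background) and none lower, and 11 of 17 had a positive fold change. The median log2 fold change of the arm was 0.29, near the 0.25 of all tested genes. Both genes called belong to steps before the sterol ring is formed. Pmvk was 20.5, 0.05, 0.86 and 9.12 FPKM in Sham and 35.1, 52.7, 54.7 and 25.1 FPKM in MCAO. It was 46.8, 30.6, 44.1 and 42.2 FPKM in MCAO+Ctrl-exos and 41.0, 62.5, 56.9 and 30.1 FPKM in MCAO+AS-exos. Sham libraries varied from near 0 to 20.5 FPKM, and all 12 others were above them. The log2 fold change of MCAO against Sham was 3.17 ± 0.64 (limma adjusted p = 6.29e-04).

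Fdft1 was 1.74, 2.91, 2.44 and 2.87 FPKM in the Sham libraries and 5.36, 7.43, 6.30 and 4.50 FPKM in those of MCAO. It was 5.98, 5.45, 6.71 and 6.21 FPKM in MCAO+Ctrl-exos and 6.53, 6.55, 5.97 and 4.56 FPKM in MCAO+AS-exos. All 12 libraries with MCAO again lay above the 4 Sham libraries, and the means of the 3 groups with MCAO were 5.90 to 6.09 FPKM. The log2 fold change of MCAO against Sham was 0.98 ± 0.30 (limma adjusted p = 0.0151). Srebf1, Pmvk and Fdft1 were the 3 members in which the 12 libraries with MCAO did not overlap Sham, all of them higher, against 11.8% of tested genes higher and 8.62% lower by the same rule.

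The other 15 sterol genes did not pass. The next smallest p was that of Idi1, the isopentenyl diphosphate isomerase gene, which was 4.06, 0.11, 5.70 and 3.28 FPKM in Sham and 0, 1.09, 0.40 and 0 FPKM in MCAO, a log2 difference of -1.45 ± 0.64 (limma adjusted p = 0.0807). Replicate 2 of Sham lay within the MCAO range and the other 3 above it. Squalene epoxidase, encoded by Sqle, was at 1.09 to 1.75 FPKM in Sham and spread from 0.32 to 20.7 FPKM in MCAO (limma adjusted p = 0.139). Hmgcs1 was at 2.28 to 10.4 FPKM in Sham and 6.30 to 12.3 FPKM in MCAO, and Fdps, which makes farnesyl diphosphate, at 10.6 to 35.2 and 17.9 to 30.9 FPKM. Msmo1, an early enzyme of lanosterol demethylation, was at 11.9 to 48.6 FPKM in Sham and 15.3 to 26.2 FPKM in MCAO. Adjusted p of these 15 genes ranged from 0.0807 to 0.927. With 1 library left out, Acat2 (without Sham replicate 2, limma adjusted p = 0.034), Cyp51 (without Sham replicate 1, 0.0438) and Sqle (without MCAO replicate 3, 0.0159) passed as higher; Tm7sf2 (without Sham replicate 1, 0.0117), Idi1 (without Sham replicate 2, 0.0171, or MCAO+AS-exos replicate 4, 0.0313), Msmo1 (without Sham replicate 4, 0.0231) and Nsdhl (without MCAO replicate 1, 0.0258) passed as lower. The sterol carrier gene Stard4 was at 0 to 2.37 and 0.08 to 1.73 FPKM.

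In the fatty acid arm, none of 9 genes was called in either direction; 1 passed at an unadjusted p under 0.05. The median log2 fold change was 0.61, and 7 of 9 were positive. Scd2, the desaturase gene with the higher level in every library, was 11, 8.68, 8.04 and 3.79 FPKM in Sham and 21.7, 14.9, 10.5 and 12.4 FPKM in MCAO, with 1 MCAO library inside the Sham range (log2 difference 0.87 ± 0.37, limma adjusted p = 0.0684). Its paralog Scd1 was listed at 0 in all 4 Sham libraries and at 0.39, 1.40, 0.40 and 0.10 FPKM in MCAO, so no fold is given. With Scd1, 5 members had MCAO values above all Sham values, against 21.8% of tested genes, and none had values below them all, against 12.0%. The elongase gene Elovl5 was at 15.2 to 25.2 FPKM in Sham and 17.2 to 40.3 FPKM in MCAO, and Acly, which makes cytosolic acetyl-CoA, at 10.2 to 21.2 and 18.7 to 36.9 FPKM. Elovl1 at 34.2 to 64.7 and 14.6 to 45.7 FPKM and Fads1, a front-end desaturase gene, at 10.3 to 20.8 and 5.97 to 17.1 FPKM had negative differences. Adjusted p of the 9 genes ranged from 0.0684 to 0.315. Under other settings 3 of them passed: Acaca with a pseudocount of 0.1 (log2 difference 2.29, limma adjusted p = 0.0359), Elovl5 with length and GC trends removed (0.93, limma adjusted p = 0.0374) or without MCAO replicate 4 (0.0389), and Scd2 without Sham replicate 1 (0.0451) or MCAO+AS-exos replicate 4 (0.0407).

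Microglia markers fell in this comparison (9 of 9 called lower by limma), and monocyte (7 of 7), border macrophage (5 of 6) and neutrophil markers (3 of 5 tested) rose; their part in the changes of the members was not tested. In sorted bulk RNA, a change in the mix of cells and a change in RNA per cell cannot be told apart. The calls of Srebf1, Srebf2, Pmvk and Fdft1 held with each library left out in turn, while Fdft1 did not pass with quantile normalization (log2 fold change 0.62, limma adjusted p = 0.106) or in a fit of the 8 libraries alone (limma adjusted p = 0.0593).

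**Figure D3:**
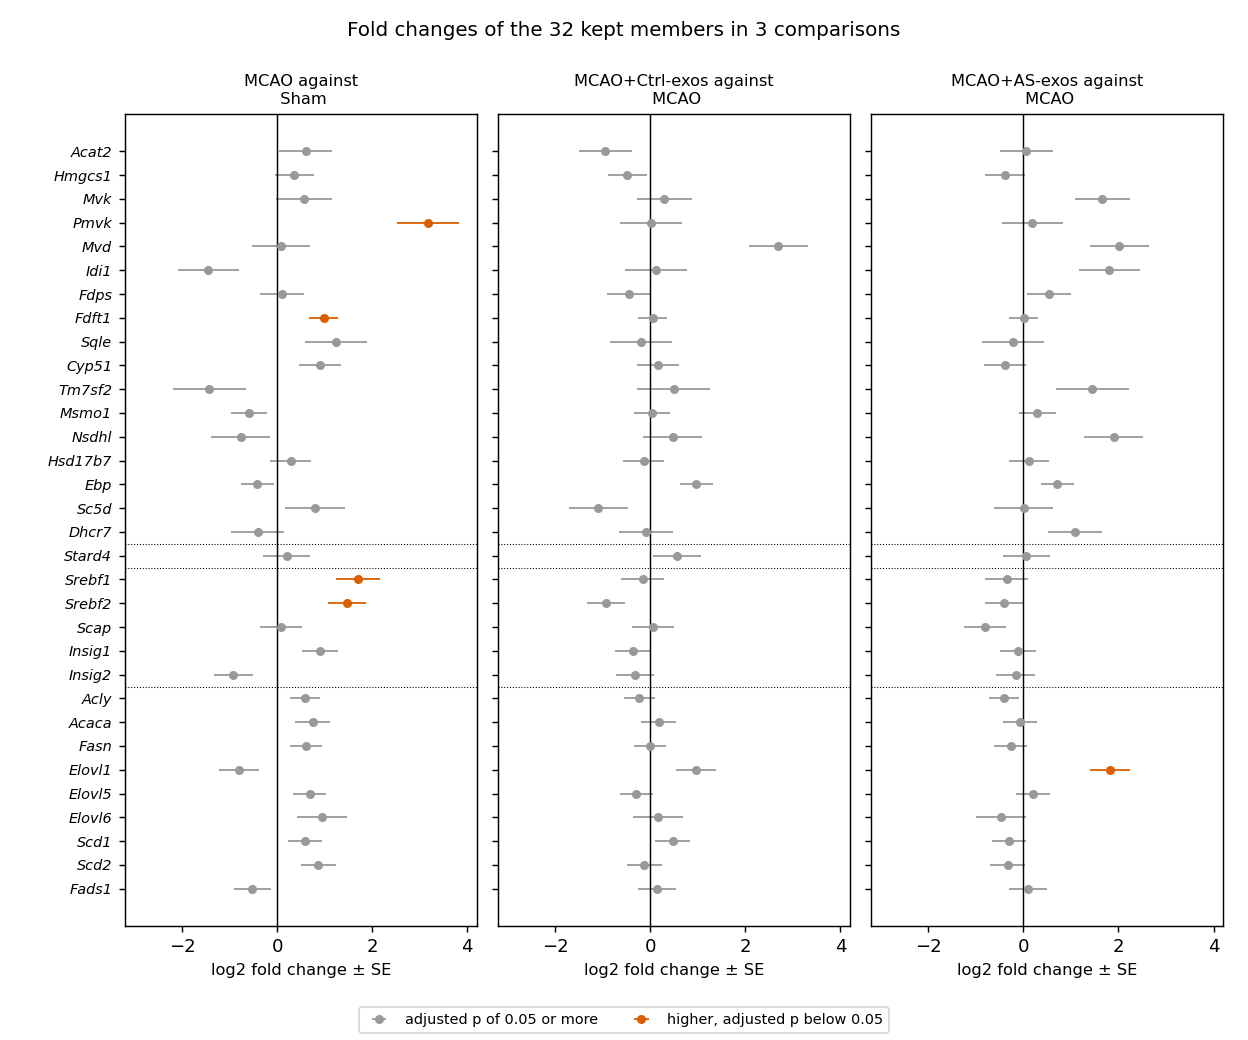
Fold change of each kept member, as a difference of log2(FPKM + 1), in 3 comparisons, with bars of 1 SE; orange points have a limma adjusted p below 0.05, and dotted lines separate sterol enzymes, Stard4, regulators and fatty acid enzymes. In MCAO against Sham 4 members are called higher, in MCAO+AS-exos against MCAO Elovl1 alone, and in MCAO+Ctrl-exos against MCAO none; Scd1 was listed at 0 in all Sham libraries, so its point in the first panel is no measure of size.

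Genes beside the listed members were taken as 4 further lists of the pathway. These lists were chosen with earlier results of these data known, so their shares are a description and no test. Of the liver X receptor and oxysterol genes, 6 of 8 rose in MCAO against Sham (75%, beside 24.5% of all tested genes) and 1 fell. Nr1h3, which encodes LXR alpha, was at 0 to 0.82 FPKM in Sham and 17.4 to 36.7 FPKM in MCAO (log2 fold change 4.33 ± 0.38, limma adjusted p = 2.45e-08). Nceh1, a cholesteryl ester hydrolase gene, rose by 5.10 ± 0.36, and Soat1, whose product esterifies cholesterol, by 2.67 ± 0.29. Rxra, the partner receptor gene, rose by 2.56 ± 0.52 and Nr1h2, which encodes LXR beta, by 0.99 ± 0.33. Ch25h, the cholesterol hydroxylase gene, was listed at 0 in all Sham libraries and at 0.04 to 26.6 FPKM in MCAO. Mylip, whose product degrades the LDL receptor and which, like Srebf1, is a known LXR target, fell from 147 ± 28.1 to 26 ± 9.42 FPKM (SD, n = 4), by 2.53 on the log2 scale.

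The other 3 lists are read against the same 24.5% of tested genes called higher and 14.8% called lower. Of 8 further enzymes, 2 rose (25%) and 2 fell (25%). Por, the reductase that feeds electrons to Cyp51 and Sqle, rose from 3.98 ± 1.97 to 53.1 ± 25.9 FPKM (log2 fold change 3.42 ± 0.35, limma adjusted p = 2.18e-07), and Cyb5r3, a cytochrome b5 reductase gene, by 1.78 ± 0.55. Lbr, a sterol reductase of the nuclear envelope, had a log2 fold change of -1.03 ± 0.32 and Ggps1, which makes geranylgeranyl diphosphate, one of -1.24 ± 0.38. Of 11 tested genes of SREBP processing and sterol-regulated degradation, 2 rose (18.2%): Vcp, the segregase gene, by 1.72 ± 0.30 and Sec24c, a COPII coat gene, by 1.64 ± 0.38. Rnf139, a ubiquitin ligase gene of this group, was the 1 that fell (9.09%), from 24 ± 1.5 to 4.50 ± 3.83 FPKM. Of 15 tested genes of fatty acid supply and activation, Slc25a1, the mitochondrial citrate carrier, was the 1 that rose (6.67%), by 2.08 ± 0.70. There, 3 genes fell (20%): Lpin1, a phosphatidate phosphatase gene, went from 11.3 ± 2.39 to 1.57 ± 1.13 FPKM, and Acsl4 and Lpcat3, which handle polyunsaturated acyl chains, had log2 fold changes of -1.08 ± 0.35 and -0.97 ± 0.34. The median log2 fold changes of the 4 lists were 2.42, 0.01, 0.29 and 0.01, in the order given, beside 0.25 for all tested genes.

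The second question is how the group given exosomes labelled Ctrl differed after stroke, with MCAO+Ctrl-exos set against MCAO. No dose, interval or vehicle is listed for the MCAO group. In comparisons with it, the exosomes and the repeated injection cannot be told apart. No member passed, against 0.0461% of tested genes higher and 0.0277% lower by limma; 4 members (12.5%) passed at an unadjusted p under 0.05, against 10.9% of tested genes. The median log2 difference was 0.03 over the members, 0.04 over the sterol arm and 0.15 over the fatty acid arm, against -0.14 over all tested genes. Mvd, which encodes the decarboxylase that closes the mevalonate steps, had the smallest p. It was listed at 0, 0, 0 and 6.72 FPKM in Sham, and was 0.31, 2.17, 0.68 and 0.39 FPKM in MCAO. In MCAO+Ctrl-exos it was 3.34, 12.3, 24.7 and 10.6 FPKM, and in MCAO+AS-exos 4.10, 8.11, 7.19 and 5.96 FPKM. Both exosome groups lay wholly above MCAO, with a log2 difference of 2.70 ± 0.61 for MCAO+Ctrl-exos (limma adjusted p = 0.114).

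Ebp was 35.2, 32.1, 38.7 and 20.0 FPKM in MCAO and 60.3, 72.7, 74.1 and 42.4 FPKM in MCAO+Ctrl-exos, also without overlap (log2 difference 0.97 ± 0.35, limma adjusted p = 0.324). In Sham it spread from 22.7 to 68.3 FPKM and in MCAO+AS-exos from 30.1 to 69.2 FPKM. Mvd and Ebp were the 2 members with MCAO+Ctrl-exos values above all of MCAO, against 1.99% of tested genes, and no member lay wholly below, against 3.99%. Srebf2, given above, had a log2 difference of -0.92 ± 0.40 (limma adjusted p = 0.406), with MCAO+Ctrl-exos replicate 3 at 8.81 FPKM above every MCAO library and the other 3 below. Mvd passed without MCAO+Ctrl-exos replicate 1 (log2 difference 3.16, limma adjusted p = 0.0196), where 0.655% of tested genes were called higher. It also passed without Sham replicate 4, which enters through the shared spread (limma adjusted p = 0.0389; 0.0738% of tested genes).

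The same question was asked of the group given exosomes labelled AS, with MCAO+AS-exos set against MCAO and the same limit. Elovl1 rose, the 1 member called (3.12%), against 1.06% of tested genes called higher. No member was called lower, against 5.08% of tested genes; 5 members (15.6%) passed at an unadjusted p under 0.05, all of them higher, against 25.7% of tested genes in either direction. The median log2 difference was 0.29 over the sterol arm, with 14 of 17 genes positive, and -0.27 over the fatty acid arm, with 3 of 9 positive, beside -0.17 over all tested genes. Elovl1 thus moved against the median of its own arm.

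Elovl1 was 34.2, 44.6, 55.1 and 64.7 FPKM in Sham and 45.7, 44.8, 18.3 and 14.6 FPKM in MCAO. It was 46.4, 74.5, 77.6 and 32.7 FPKM in MCAO+Ctrl-exos and 122, 135, 140.1 and 42.3 FPKM in MCAO+AS-exos. Replicates 1 to 3 of MCAO+AS-exos were the 3 highest of the 16 libraries, and replicate 4 lay within the MCAO range. The log2 fold change of MCAO+AS-exos against MCAO was 1.83 ± 0.42 (limma adjusted p = 0.0277). The call was lost without MCAO replicate 1, 3 or 4 (limma adjusted p = 0.051, 0.0609 and 0.0674) and without MCAO+AS-exos replicate 1, 2 or 3 (0.110, 0.128 and 0.138). Without MCAO+AS-exos replicate 4 the log2 fold change was 2.23 (limma adjusted p = 0.00127).

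The members with the next smallest p belong to the sterol arm. Mvd, whose values are given above, had a log2 difference of 2.02 ± 0.61 (limma adjusted p = 0.0541), without overlap between the groups. Nsdhl, which encodes a dehydrogenase that removes the methyl groups of lanosterol, was 17.9, 0.88, 1.22 and 2.03 FPKM in MCAO and 14.6, 19.1, 17.5 and 6.96 FPKM in MCAO+AS-exos. MCAO replicate 1 lay within the MCAO+AS-exos range and the other 3 below it (log2 difference 1.90 ± 0.62, limma adjusted p = 0.0687). In Sham and MCAO+Ctrl-exos Nsdhl was at 3.43 to 10.5 and 1.45 to 9.11 FPKM. Mvd, Mvk and Dhcr7, the gene of the last reductase before cholesterol, were the 3 members with MCAO+AS-exos values above all of MCAO, against 4.29% of tested genes. Srebf2 was the 1 member with all values below, against 10.1%. Dhcr7 stood at 3.5, 3.56, 3.35 and 3.54 FPKM in MCAO+AS-exos, a narrower spread than its 0.03 to 3.15 FPKM in MCAO (log2 difference 1.09 ± 0.56, limma adjusted p = 0.233).

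Without MCAO+AS-exos replicate 4, 4 members passed: Elovl1, Idi1 (log2 fold change 2.54, limma adjusted p = 0.0049), Mvd (2.04, limma adjusted p = 0.0478) and Nsdhl (2.19, limma adjusted p = 0.0305). In that fit the calls of all genes also rose, from 115 to 422 higher (3.89% of tested genes) and from 551 to 1602 lower. Endothelial markers summed to 0.26 to 6.51 FPKM in MCAO and 3.87 to 61.4 FPKM in MCAO+AS-exos, and Ly6c1 was called higher, 1 of the 2 of them tested. Most of the highest sum, that of replicate 4, was Ly6c1 (49.5 FPKM). Flt1 was at 0.02 to 1.51 FPKM in MCAO and 0.01 to 1.56 FPKM in MCAO+AS-exos. The part of the endothelial markers in the values of the members was not tested.

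**Figure D4:**
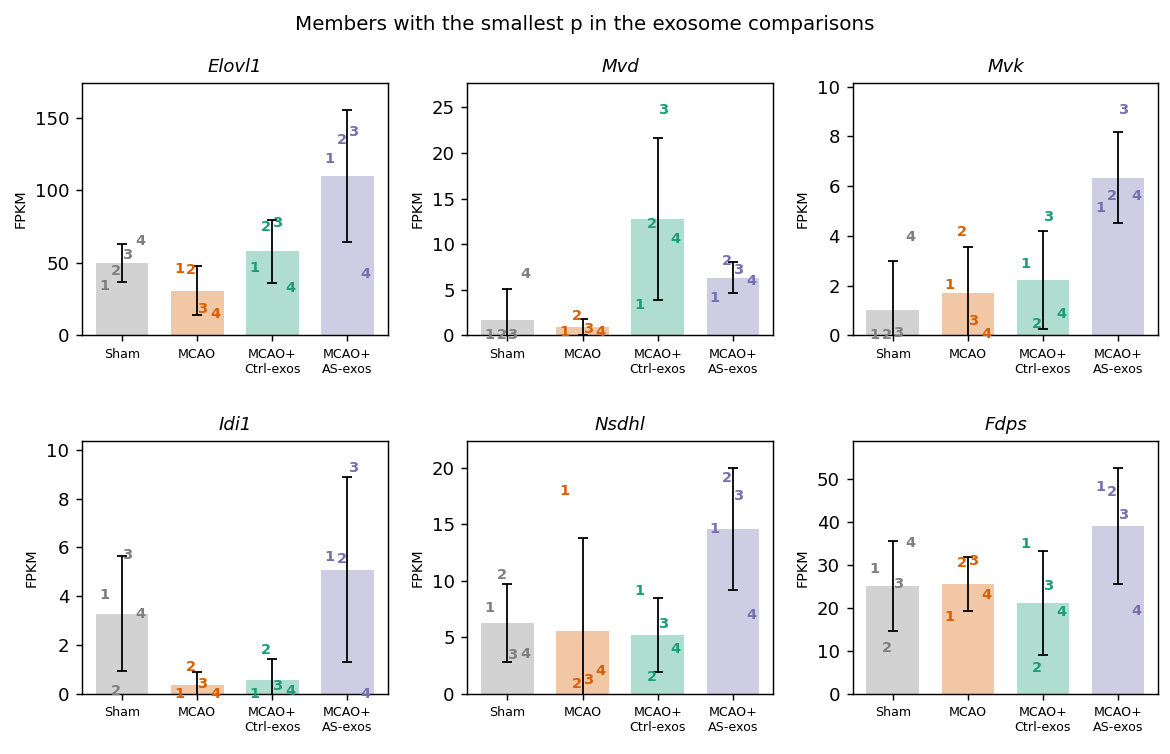
FPKM of the elongase gene Elovl1 and of 5 sterol enzymes in the 4 groups; bars are group means, error bars SD (cut off at 0 where they reach below it), and each digit is the replicate number of a library. MCAO+AS-exos replicates 1 to 3 stand above MCAO for Elovl1, Mvd, Mvk, Idi1 and Fdps, while replicate 4 lies within or near the MCAO range for Elovl1, Idi1 and Fdps.

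Beside the members, 2 genes of the further lists passed in MCAO+AS-exos against MCAO. Of 15 tested genes of fatty acid supply and activation, 1 was called higher (6.67%), against 1.06% of all tested genes. Of 11 tested genes of SREBP processing and sterol-regulated degradation, 1 was called lower (9.09%), against 5.08% of all tested genes. The further enzymes and the liver X receptor and oxysterol genes, 8 tested in each list, had none. Hsd17b12, which encodes the ketoacyl reductase that works with the ELOVL elongases, was 59.0, 54.0, 45.7 and 33.0 FPKM in MCAO and 107, 115, 121 and 77.2 FPKM in MCAO+AS-exos. The groups did not overlap, and the log2 fold change was 1.13 ± 0.27 (limma adjusted p = 0.0307). Rnf145, a sterol-responsive ubiquitin ligase gene, was 24.4, 20.6, 24.2 and 19.6 FPKM in MCAO and 11.1, 6.55, 8.58 and 10.7 FPKM in MCAO+AS-exos, again without overlap (log2 fold change -1.20 ± 0.33, limma adjusted p = 0.0421). In MCAO+Ctrl-exos Rnf145 was at 6.20 to 14.2 FPKM and Hsd17b12 at 39.0 to 76.8 FPKM. None of the genes of these 4 lists passed in MCAO+Ctrl-exos against MCAO or in MCAO+AS-exos against MCAO+Ctrl-exos.

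The direct comparison of MCAO+AS-exos with MCAO+Ctrl-exos asks whether the exosomes of the 2 sources differ. No member passed, against 0.157% of tested genes higher and 0.129% lower by limma; 5 members (15.6%) passed at an unadjusted p under 0.05, against 19.6% of tested genes. The median log2 difference was 0.26 over the sterol arm and -0.20 over the fatty acid arm, against -0.08 over all tested genes. Idi1 was 0, 1.81, 0.32 and 0.11 FPKM in MCAO+Ctrl-exos and 5.60, 5.52, 9.24 and 0 FPKM in MCAO+AS-exos. Replicates 1 to 3 of MCAO+AS-exos were above all of MCAO+Ctrl-exos and replicate 4 was at 0 (log2 difference 1.69 ± 0.64, limma adjusted p = 0.16).

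Mvk was 2.86, 0.45, 4.75 and 0.86 FPKM in MCAO+Ctrl-exos and 5.11, 5.59, 9.06 and 5.59 FPKM in MCAO+AS-exos, without overlap (log2 difference 1.37 ± 0.58, limma adjusted p = 0.204). In MCAO it was 2.04, 4.17, 0.57 and 0.07 FPKM and in Sham 0, 0, 0.10 and 3.96 FPKM, so the 4 MCAO+AS-exos libraries held the 4 highest values of the 16. Nsdhl had a log2 difference of 1.43 ± 0.62 (limma adjusted p = 0.213). Mvk and Acat2, a thiolase gene at the start of the pathway, were the 2 members with MCAO+AS-exos values above all of MCAO+Ctrl-exos, against 5.19% of tested genes, and no member lay wholly below, against 5.02%. Acat2 was at 0.74 to 1.96 FPKM in MCAO+Ctrl-exos and 2.34 to 5.01 FPKM in MCAO+AS-exos. Without MCAO+AS-exos replicate 4, Idi1 (log2 difference 2.42, limma adjusted p = 0.00916) and Elovl1 (1.26, limma adjusted p = 0.046) passed, while the calls of all genes went from 17 to 382 higher (3.52%) and from 14 to 915 lower.

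The 3 comparisons among the groups with MCAO share libraries, so their values are not independent of each other. Summed over the arm, sterol genes came to 119 to 174 FPKM in Sham, 154 to 190 FPKM in MCAO, 173 to 240 FPKM in MCAO+Ctrl-exos and 145 to 293 FPKM in MCAO+AS-exos. Fatty acid genes came to 100.99 to 118, 75.9 to 149, 118 to 161 and 144 to 225 FPKM in the same order. Such sums are weighted to abundant genes, which in the sterol arm include Ebp, Fdps and Msmo1 in every group and Pmvk in the groups with MCAO. In the fatty acid arm, mean Elovl1 alone was 30.9 FPKM in MCAO and 110 FPKM in MCAO+AS-exos, beside mean sums of 119 and 190 FPKM. The median log2 difference of that arm between these groups was -0.27. The ranges of neighbouring groups overlapped in both arms. The number of sterol genes at 1 FPKM or more was 16 to 17 of 17 in MCAO+AS-exos libraries, against 12 to 16 in Sham, 12 to 16 in MCAO and 12 to 14 in MCAO+Ctrl-exos. For the 9 fatty acid genes it was 8 to 9 in MCAO+Ctrl-exos, 5 to 6 in Sham, 6 to 8 in MCAO and 5 to 7 in MCAO+AS-exos. Scd1, Acaca and Elovl6 each reached 1 FPKM in 3 MCAO+Ctrl-exos libraries and in at most 1 library of any other group. They passed the filter only through MCAO+Ctrl-exos, so this count favours that group by construction and is not read as a result. Counts over all genes were not set beside those of either arm.

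Within MCAO+AS-exos, replicate 4 lay below all of replicates 1 to 3 for 9 of 17 sterol genes (52.9%) and 2 of 9 fatty acid genes (22.2%), against 31.8% of all tested genes. It lay above all 3 for 1 of 17 sterol genes (5.88%) and 5 of 9 fatty acid genes (55.6%), against 48.1% of all tested genes. The difference between the arms was not tested. The median SD of log2(FPKM + 1) over the members was 0.70 in Sham, 0.54 in MCAO, 0.69 in MCAO+Ctrl-exos and 0.42 in MCAO+AS-exos, and 0.23 within replicates 1 to 3 of the last. Over all tested genes it was 0.57, 0.49, 0.49, 0.40 and 0.22 in the same order.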

How the data were processed

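RNA sequencing of 16 libraries, 4 in each of 4 groups taken from the sample titles, was used as deposited. Per the submitters' processing notes, HISAT2, Bowtie2, RSEM 1.3.1 and build GRCm39.p6 are named without their roles, the annotation or filters. The values the authors deposited were read as FPKM, since RSEM is named and library totals were unequal; TPM over part of the genes remains possible. Counts were not used here, so depth and counting error are unknown. The table and the 16 single-library files held identical values.

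On the scale of log2(FPKM + 1), the 10846 genes at 1 FPKM or more in at least 4 libraries were fitted with 4 group means and all 16 libraries in limma 3.58.1 in R 4.3.3 (eBayes with trend and robust), two-sided, with Benjamini-Hochberg adjustment over all tested genes and a threshold of 0.05. The other 3136 genes were not tested. The script was tested on simulated data. Members, roles and the further gene lists were chosen with earlier results of these data known. By rule, every library's value is given for members past the threshold in any comparison, for the 5 regulators, and, where fewer than 3 members passed, for the 3 with the smallest p. Genes outside this rule (Scd1, Scd2, Dhcr7) were named with library values after these were seen. Replicate numbers are not said to pair libraries and were not used as pairs. The correlation of residuals between equal numbers was -0.148 to 0.0923. In each comparison, 1 or 2 of 4 libraries correlated best with their own number. A shared day or batch was not tested.

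Alternatives were a pseudocount of 0.1, no filter, a minimum of 5 FPKM, quantile normalization, equal totals, a correction for transcript length and GC content (GENCODE M21, build GRCm38, matched by symbol for 10622 tested genes), limma without trend, only the 8 libraries compared, quality weights per library, a replicate block, and leaving out each library. The gene ratios, and a fit without both MCAO+Ctrl-exos replicate 1 and MCAO+AS-exos replicate 4, were added after seeing the data.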

Additional observations from a re-analysis of the deposited data

Results flagged for a closer look

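In 11 of 128 sets of 4 values (a member in a group), 1 library lay far from the other 3, by a gap past the 95% critical value of Dixon's test. Chance gives about 1 in 20 for independent, normal values, which sets that share libraries or hold several zeros are not. The rate over all tested genes was not computed, so the 11 are not read as an excess among the members. Over all tested genes, MCAO+AS-exos replicate 4 lay below replicates 1 to 3 for 31.8% and above them for 48.1%. In MCAO+AS-exos, replicate 4 was low for Elovl1 (42.33 FPKM against 121.86 to 140.06) and Fdps (19.36 against 41.77 to 48.2) and high for Scd2 (21.41 against 8.49 to 9.71). Replicate 3 of that group was high for Mvk (9.06 FPKM against 5.11 to 5.59) and Cyp51 (5.89 against 2.72 to 3.13). In Sham, replicate 4 was high for Mvd (6.72 FPKM, the others listed at 0) and Mvk (3.96 against 0 to 0.1), replicate 1 for Stard4 (2.37 against 0 to 0.21) and replicate 3 for Elovl6 (0.26 against 0 to 0.02). Elovl5 was low in MCAO replicate 4 (17.23 FPKM against 35.42 to 40.26) and in MCAO+Ctrl-exos replicate 2 (11.9 against 30.21 to 34.86).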

How the results depend on the processing

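In MCAO against Sham, the calls of Pmvk, Srebf1 and Srebf2 held under every alternative run. The median log2 fold change of the sterol arm was 0.97 with a pseudocount of 0.1 and -0.071 with quantile normalization, and -0.037 to 0.59 with 1 library left out. Quantile normalization, which moved the median of all genes from 0.25 to -0.03, called 2 members lower (Idi1 and Insig2), beside 2164 of all tested genes. Leaving out both MCAO+AS-exos replicate 4 and MCAO+Ctrl-exos replicate 1 called 1 member lower, beside 1711 of all tested genes. With 1 library left out, 4 to 6 members were called higher and 0 to 1 lower, the latter Tm7sf2, Idi1, Msmo1, Nsdhl or Insig2 by library. Scap reversed to -0.25 with quantile normalization and to -0.39 with length and GC trends removed (-0.22 to 0.40 with 1 library left out). Insig2 passed with quantile normalization (-1.18, limma adjusted p = 0.0268) or without MCAO replicate 4 (limma adjusted p = 0.0287). Insig1 passed with length and GC trends removed (limma adjusted p = 0.0452), without Sham replicate 3 (0.0397) or without MCAO replicate 1 (0.0334). In MCAO+Ctrl-exos against MCAO, quality weights and leaving out both libraries called 1 member higher each, and leaving out 1 library 0 to 1. Of all tested genes, 48 were called higher there with quality weights and 115 without both libraries. In MCAO+AS-exos against MCAO, quantile normalization called 3 higher (Elovl1, Mvd and Mvk), removal of length and GC trends 0, the fit of only 8 libraries 0, quality weights 6 higher and 2 lower (Acly and Scap), leaving out both libraries 4, and leaving out 1 library 0 to 4. The sterol median was 0.61 with quality weights, and the fatty acid median 0.10 with a minimum of 5 FPKM, which kept 5 of its genes. In MCAO+AS-exos against MCAO+Ctrl-exos, quality weights called 6 higher and 1 lower (Scap), leaving out both libraries 2 higher (Fdps and Idi1), and leaving out 1 library 0 to 2. Quality weights raised the calls of all genes in the AS comparisons too, to 1138 higher and 2817 lower against MCAO. Against MCAO+Ctrl-exos they gave 1226 higher and 2040 lower, of 10846 tested genes. Leaving out both libraries called 464 of all genes higher and 1691 lower against MCAO, and 356 higher and 732 lower against MCAO+Ctrl-exos. With quantile normalization, 96 of all genes were called higher and 222 lower in MCAO+AS-exos against MCAO. The log2 ratio of Insig1 to Insig2 stayed between 1.51 and 2.14 with 1 library left out, at an exact permutation p of 0.0571, the smallest that 3 against 4 allows. With the replicate number as a block, members called higher were 5, 0, 1 and 0 in the order above, and lower 0 in each; Insig1 was the added call (limma adjusted p = 0.0442). By this fit 2611, 3, 78 and 24 of all tested genes were called higher in the same order. Whether equal numbers pair libraries is not known. The causes of these shifts were not tested. With no counts, the error of members near 0 FPKM is unknown.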
